A study of Mus musculus with 4 samples.

Results

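Rab GTPases were read across the cell classes of the mouse retina in a long-read single-cell experiment. Members were the genes of the deposited isoform table whose symbol is Rab followed by a number and, where there is one, a paralogue letter. They came to 55 of 13452 Ensembl genes, 119 of 44325 isoforms and 714267 of 149645836 counts, or 0.477% (95% exact binomial interval 0.476 to 0.478). GENCODE M21 names 59 such genes, and Rab25, Rab42, Rab44 and Rab7b have no row in the table. All retinas came from wild-type males of the inbred strain C57BL6/J. They were dissociated into single cells and made into 4 libraries with 10x Genomics chemistry, whose cDNA was sequenced on a nanopore instrument. Of these, 2 had no enrichment (1 from postnatal day 40, the other with no age in its labels), 1 was labelled with CD73 enrichment at postnatal week 8, and 1 with CD90.2 enrichment at postnatal month 4. CD90.2 marks neurons such as ganglion cells at their surface, and CD73 marks photoreceptors. According to the labels' protocol, beads removed cells carrying CD73 and retained cells carrying CD90.2, whereas the series design names flow sorting. All groups share the same genotype and no agent was given.

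Counts stand in 6 columns, 1 for each cell class: amacrine cells (AC), bipolar cells (BC), cones (Cone), Müller glia (MG), rods (Rod) and retinal ganglion cells (RGC). No column names a library or an animal, so a class is 1 pooled sample, there is no replicate, and no test between classes was possible. A level is given as CPM, the counts of a gene over all its isoforms divided by the total of the column and multiplied by 1000000. It is not divided by length, since 1 long read stands for 1 cDNA. Columns are pooled RNA, so fewer cells with a transcript and less of it per cell cannot be told apart. Intervals are exact 95% intervals (Poisson for CPM, Clopper-Pearson for shares) and cover the counting error of reads only. PCR copies of a cDNA are not independent molecules, and whether they were collapsed is not given. The intervals may therefore be too narrow, also where they are said below not to overlap.

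Rab proteins are small GTPases that act as switches of membrane traffic. Bound to GTP and anchored by lipid groups on cysteines at their C-terminal end, each marks a set of organelles or vesicles and recruits effectors that tether, move or fuse them. Exchange factors load GTP, GTPase-activating proteins end the active state, and GDI proteins carry the inactive form between membranes. In the retina they are known for synaptic vesicle release, for the passage of membrane cargo from the Golgi to the photoreceptor cilium, and for inherited disease: RAB28 in cone-rod dystrophy, and CHM, the Rab escort protein, in choroideremia.

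A feature that the choice of members did not use is how the reading frame ends. The last 8 codons before the stop were read from GENCODE M21 transcripts (GRCm38) for 54 of the 55 members, each in its most counted annotated coding transcript. Rab33b was left out because its counted isoform is a processed transcript. All 54 frames have at least 1 cysteine codon (TGC or TGT) among the last 5. In 27 members a pair of cysteine codons is adjacent, in 18 the pair stands around 1 other codon, and in 9 (Rab8a, Rab8b, Rab13, Rab18, Rab23, Rab28, Rab38, Rab40b and Rab40c) a single cysteine codon is the fourth from the end. These arrangements are shown with members that the results turn on, 5′ to 3′, with cysteine codons in capitals and the stop codon left off.
Rab7 (chr6, minus strand): gcctccgcagaaagcTGCagtTGT
Rab3a (chr8, plus strand): ccacctcatcaggatTGTgccTGC
Rab6a (chr7, plus strand): gtcaatgaaggcggcTGTtccTGC
Rab1a (chr11, plus strand): aagcagtcaggtggaggcTGCTGC
Rab20 (chr8, minus strand): cagactagatccgggTGTTGTgcc
Rab11a (chr9, minus strand): aaggtgcagTGCTGTcagaacatc
Rab13 (chr3, plus strand): aagaagaacaagTGCttgttaggc
Rab28 (chr5, minus strand): cagagtagagtcTGTtcagtacag
The frames ran from 194 codons to 291 codons, with a median of 215. The P-loop, the conserved nucleotide-binding stretch of GTPases, was found in 52 of the 54 frames. It was not matched in Rab40b and Rab40c, the members that carry a SOCS box and bind ubiquitin ligase subunits.

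Column totals ran from 3509890 counts (RGC) to 55437340 (Rod), so precision was lowest for RGC, where the floor of 3 counts, the limit used for a count of 0, is 0.855 CPM, and highest for rods, where it is 0.0541 CPM. The upper ends of the 2-sided exact intervals at 0 counts are 1.05 and 0.0665 CPM. Markers were checked against the column labels: all 7 amacrine, 7 bipolar, 6 cone, 6 rod and 7 ganglion cell markers were highest in their own column, as were 5 of 6 for Müller glia (Dkk3 was higher in AC). The MG column was also highest for 6 of 6 microglia markers (summed level 1514 CPM against 34.2 to 722 in the other columns). It was highest for 5 of 6 pigment epithelium markers (8859 CPM against 2.85 to 62.4, with Best1 at 0) and 3 of 3 astrocyte markers. The same held for 2 of 2 pericyte markers (253 CPM against at most 11.9) and 2 of 2 endothelium markers (9.29 CPM against at most 0.552). The 4 of 6 horizontal cell markers with a row summed highest in AC (221 CPM) and RGC (214), while Onecut1 was highest in BC and Onecut2 in Cone. All 6 rod markers are listed at 0 in the RGC column, while their sum was 138 to 1270 CPM in the other non-rod columns. Also at 0 in RGC were 5 of 6 cone, 4 of 7 bipolar, 3 of 6 Müller glia and 1 of 7 amacrine cell markers. How the authors filtered cells and isoforms is not given in the sources used here.

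Rab transcripts took the largest share of counts in ganglion and amacrine cells. The share was 0.875% in RGC (0.866 to 0.885), 0.771% in AC (0.768 to 0.773), 0.400% in BC (0.398 to 0.402), 0.328% in Cone (0.324 to 0.332), 0.282% in Rod (0.281 to 0.284) and 0.252% in MG (0.248 to 0.256). No interval overlapped another. Rab3a, the main Rab of synaptic vesicles, made up 42.1% of Rab counts in AC, 43.0% in BC, 36.5% in Cone, 39.2% in RGC, 17.1% in Rod and 5.65% in MG. Without it the shares were 0.532% in RGC, 0.446% in AC, 0.237% in MG, 0.234% in Rod, 0.228% in BC and 0.208% in Cone. The 2 highest classes kept their places. MG moved from the lowest place to one beside Rod, and their intervals (0.234 to 0.241 for MG, 0.233 to 0.235 for Rod) overlapped.

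**Figure D1:**
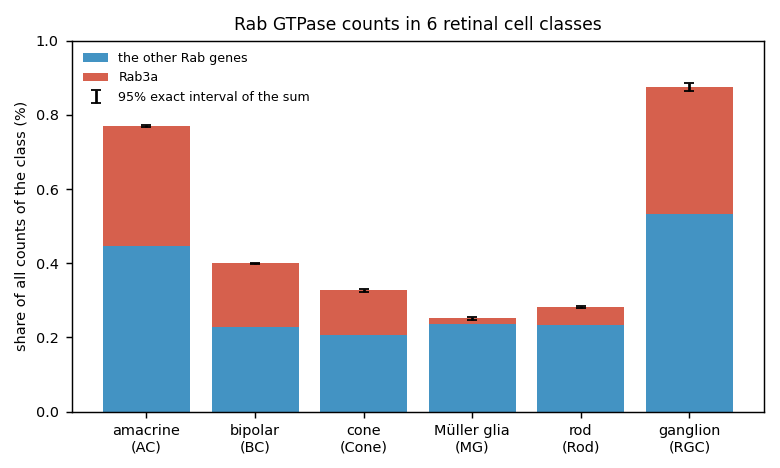
Share of all counts of each cell class (%, y axis) that fell on Rab genes, as stacked bars for Rab3a (red) and the other Rab genes (blue), with 95% exact intervals of the sum. The RGC and AC bars, at 0.875% and 0.771%, are the tallest, and the Rab3a part is smallest in MG, at 5.65% of Rab counts.

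Of the 55 members, 49 had at least 100 counts over all columns and were compared between classes; Rab17, Rab27a, Rab2b, Rab33b, Rab37 and Rab39 had fewer. A gene was called high or low in a class when log2 of its CPM + 1 over the mean CPM of the other 5 classes + 1 was at least 1 or at most -1, that is, a 2-fold rule of size. In RGC 16 members were high (32.7%, against 12.8% of 9868 Ensembl genes) and 11 low (22.4%, against 42%). In AC 13 were high (26.5%, against 14.8%) and 6 low (12.2%, against 23.9%). Rods had the reverse balance, with 4 members high (8.16%, against 16.8%) and 22 low (44.9%, against 24.9%).

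The other classes also held more low than high members. Cones had 1 high member (background 5.6%) and 20 low (background 27.2%), BC had 4 (8.63%) and 19 (21%), and MG had 5 (13.6%) and 17 (27.7%). The median log2 ratio of Rab genes, beside that of all genes tested, was 0.26 against -0.74 in RGC, 0.52 against -0.16 in AC, -0.48 against -0.21 in BC, -0.80 against -0.37 in Cone, -0.65 against -0.43 in MG and -0.66 against 0.00 in Rod. With columns scaled by the median of ratios, the medians of all genes moved to -0.33 in AC, -0.20 in MG, -0.24 in Cone and -0.13 in Rod, and those of Rab genes to 0.32, -0.40, -0.65 and -0.70. Under the median of ratios 11 members were high and 9 low in AC, 6 high and 11 low in MG, 2 high and 19 low in BC, and 2 high and 18 low in Cone. The trimmed mean of M-values moved the median of all genes to -0.23 in Cone, with 3 members high and 18 low there, and gave 5 high and 12 low in MG. Against the median in place of the mean of the other 5 classes, the calls over all 6 classes turned from 43 high and 95 low to 62 high and 45 low. Most members varied by class in 1 direction or the other, as most genes did: 34 of 49 were high in at least 1 class (background 63.5%) and 37 low in at least 1 (background 73.3%). Highest levels were in RGC for 17 members (34.7%, against 15.0% of all genes tested), AC for 12 (24.5%, against 19.7%), MG for 7 (14.3%, against 17.0%), Rod for 7 (14.3%, against 26.1%), BC for 4 (8.16%, against 13.9%) and Cone for 2 (4.08%, against 8.29%).

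**Figure D2:**
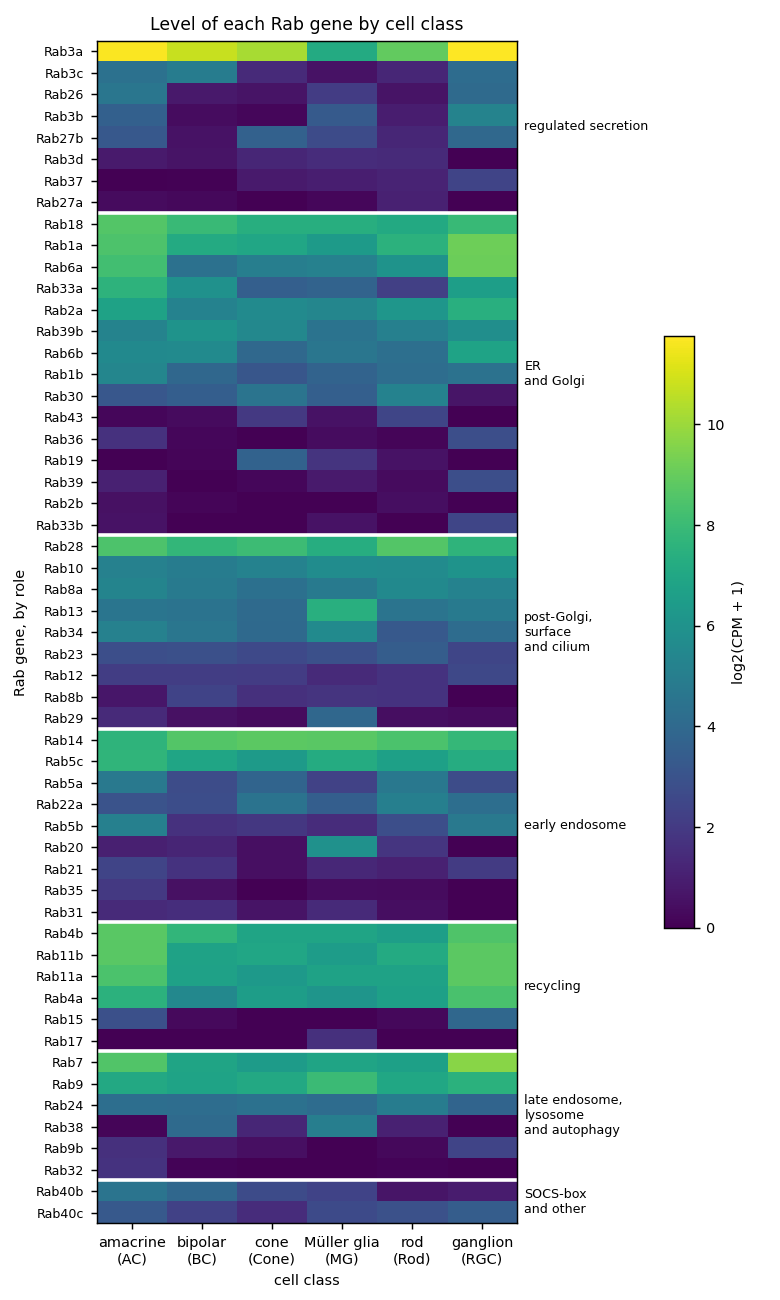
Level of each of the 55 Rab genes (rows, grouped by role and sorted by counts) in 6 cell classes (columns), as log2(CPM + 1). Rab3a is the brightest row, Rab11a, Rab11b, Rab4b and Rab7 are brightest in AC and RGC, and Rab13, Rab20 and Rab38 stand out in MG.

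Rabs of regulated secretion were led by Rab3a (chr8:70754679-70758677, 255034 counts), which guides synaptic vesicles to release sites. Its level was 3435 CPM in RGC, 3247 in AC, 1720.4 in BC, 1196 in Cone, 484 in Rod and 142 in MG. The neurons of the inner retina were thus above both photoreceptor classes, cones were above rods, and the spread from RGC to MG was 24.2-fold. Its paralogues were far lower and were placed differently. Rab3b, a vesicle Rab of several secretory neurons, had 37.6 CPM in RGC, 11.2 in AC, 8.97 in MG, 0.938 in Rod, 0.310 in BC and 0.137 in Cone. Rab3c, another vesicle Rab, had 30.0 CPM in BC, 20.0 in AC and 16.8 in RGC. It had 1.64 CPM in Cone, 1.41 in Rod and 0.489 in MG (3 counts). So bipolar cells, which were among the lowest for Rab3b, were highest for Rab3c. The Rab3b value in Cone is 1 count, and its interval (0.003 to 0.762) overlapped that of BC (0.142 to 0.589).

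Rab26, which is linked to synaptic and secretory vesicles, had 23.5 CPM in AC and 16.0 in RGC, against 0.541 to 3.26 in the other 4 classes. Rab27b, a Rab of dense secretory granules (chromosome 18), had 14.8 CPM in RGC, 11.5 in Cone, 8.35 in AC, 5.38 in MG, 1.37 in Rod and 0.483 in BC. It was the one tested member of this role whose second highest class was Cone. Rab27a, its paralogue in melanosome transport, had 81 counts in all, of which 61 were in Rod (1.10 CPM). Rab3d stayed between 0.552 and 1.79 CPM in 5 classes and had 0 counts in RGC. In role terms, 4 of 6 tested secretion members were high in RGC (background 12.8%), and 5 of 6 were low in Rod (background 24.9%).

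Among members of the endoplasmic reticulum and Golgi, 5 of 12 tested were high in RGC (background 12.8%), 3 in AC (14.8%), 2 in Rod (16.8%) and 1 in Cone (5.6%), and 6 were low in each of Cone (27.2%) and MG (27.7%). Rab6a, which runs traffic within and back from the Golgi (chr7:100607410-100641268), had 553 CPM in RGC and 292 in AC. It had 64.6 CPM in Rod, 34.2 in MG, 31.1 in Cone and 19.6 in BC, a 28.2-fold span. Rab33a, a Golgi and vesicle Rab on the X chromosome, had 192 CPM in AC, 94.9 in RGC and 61.4 in BC, against 12.4 in MG, 10.7 in Cone and 3.68 in Rod. That 52.3-fold distance from AC to Rod was the widest among members with at least 10000 counts. Rab1a, which carries cargo from the endoplasmic reticulum to the Golgi, had 572 CPM in RGC, 357 in AC, 184 in Rod, 144 in BC, 123 in Cone and 82.5 in MG. Rab18, a Rab of the endoplasmic reticulum and lipid droplets (chromosome 18), was flatter, from 141 CPM in Rod to 382 in AC.

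Other Golgi members were highest in photoreceptors. Rab30, a Golgi Rab, had 36.1 CPM in Rod and 21.9 in Cone. It had 10.6 CPM in MG, 10.5 in BC, 7.98 in AC and 0.570 in RGC (2 counts). Rab43, which sorts receptors out of the endoplasmic reticulum, had 4.47 CPM in Rod and 2.87 in Cone, against 0.489 or less in AC, BC and MG and 0 counts in RGC. Rab19 had 11.8 CPM in Cone (86 of its 132 counts), 2.45 in MG and 0.505 in Rod, with 0 counts in AC and RGC. It was the sole member high in cones, while Rab43 (1.03) and Rab27b (1.01) passed the log2 ratio of 1 there under the trimmed mean of M-values, and Rab43 (1.04) under the median of ratios. Rab36 had 5.98 CPM in RGC and 2.20 in AC, with 0 counts in Cone and at most 0.326 CPM elsewhere.

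A single isoform of Rab6a is listed in the table, although M21 annotates a pair of mutually exclusive exons of 106 bases in this gene. The counted isoform holds the downstream exon, and no transcript with the upstream exon has a row. The exons are shown because they are the choice between the known Rab6a products, with the bases that differ in capitals.
Rab6a exon counted, chr7:100629838-100629943 (GRCm38, plus strand): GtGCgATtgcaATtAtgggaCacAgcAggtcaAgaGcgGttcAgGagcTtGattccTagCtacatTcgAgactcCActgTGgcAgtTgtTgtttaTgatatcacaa
Rab6a exon not listed, chr7:100629666-100629771 (GRCm38, plus strand): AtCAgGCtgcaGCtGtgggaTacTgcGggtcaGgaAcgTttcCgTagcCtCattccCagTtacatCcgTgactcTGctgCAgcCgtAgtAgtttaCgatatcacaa
They differ at 30 of 106 bases. Over the 208 codons of the whole frame 24 codons differ, and 3 of these change the encoded residue. All 20611 Rab6a counts therefore stand for 1 of the 2 forms as listed, and the other form was not analysed here.

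Among Rabs of the post-Golgi route, the cell surface and the cilium, 3 of 9 were high in MG (background 13.6%), 1 in BC (8.63%) and none in the other classes. Rab28 (chr5:41624976-41708157), a ciliary Rab needed for outer segment shedding in cones, had 390 CPM in Rod, 351 in AC, 269 in Cone, 217 in BC, 200 in RGC and 160 in MG. Rods and amacrine cells were thus above cones. Rab8a, which acts in transport to the cilium, had 46.0 CPM in Rod, 38.0 in AC, 35.9 in RGC, 27.6 in MG, 26.5 in BC and 19.3 in Cone. Its paralogue Rab8b had 4.21 CPM in BC, 0.643 to 2.45 in AC, Cone, MG and Rod, and 0 counts in RGC. Rab10, which acts in polarised secretion, and Rab23, which restrains Hedgehog signalling, were among the 3 least variable members with at least 1000 counts. Rab10 ran from 29.4 CPM in BC to 64.7 in RGC, and Rab23 from 4.56 in RGC to 10.1 in Rod, a 2.20-fold and a 2.22-fold span.

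In Müller glia, Rab13, a Rab of tight junctions, had 167 CPM, against 15.5 in Cone, 21.2 in BC, 21.9 in Rod, 22.6 in AC and 26.8 in RGC. Rab34, which acts early in cilium formation, had 48.6 CPM in MG, 34.5 in AC, 23.4 in BC, 16.5 in RGC, 14.9 in Cone and 8.69 in Rod. Rab29, a Golgi and lysosome Rab that binds LRRK2, had 14.3 CPM in MG (88 of its 203 counts) and at most 1.64 elsewhere. The MG column is also the one with most pigment epithelium, microglia and pericyte marker RNA, with the values given above, and the part of those cells in these levels was not tested.

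Early endosome members showed a split within a single trio. Rab5a, Rab5b and Rab5c all control fusion of early endosomes. Rab5c was the most abundant, from 82.7 CPM in Cone to 202 in AC. Rab5a had 26.1 CPM in AC and 25.2 in Rod, 12.7 in Cone, and 3.91 to 5.70 in MG, BC and RGC. Rab5b had 33.7 CPM in AC and 26.2 in RGC but 5.97 in Rod and 1.79 to 2.74 in MG, BC and Cone. Amacrine cells were thus high for both, rods only for Rab5a and ganglion cells only for Rab5b by the 2-fold rule; the intervals of Rod (23.9 to 26.5 for Rab5a, 5.34 to 6.65 for Rab5b) and RGC (3.48 to 8.80 and 21.1 to 32.1) did not overlap for either gene.

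Rab14, an endosome to Golgi Rab and the most even member with at least 10000 counts, had 441 CPM in Cone, 429 in MG, 383 in BC, 346 in Rod, 228 in RGC and 196 in AC. It was the one member with at least 10000 counts whose lowest levels were in the AC and RGC columns. Rab22a, which sorts endosomal cargo, had 33.0 CPM in Rod, 21.1 in Cone, 17.7 in RGC, 10.4 in MG, 7.09 in AC and 5.93 in BC. Rab20, known from phagosomes of macrophages, had 60.3 CPM in MG, 0.411 to 2.56 in AC, BC, Cone and Rod, and 0 counts in RGC. It held 91.9% of its summed CPM in MG. Microglia markers were highest in the same column and their part in the Rab20 level was not tested.

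Rab35, a Rab of return to the plasma membrane, was highest in AC at 2.88 CPM (139 of 170 counts) and had 0 counts in Cone and RGC. Rab31 had 0.361 to 1.93 CPM in 5 classes and 0 counts in RGC.

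Among recycling Rabs, 4 of 5 tested members were high in RGC (background 12.8%) and 3 of 5 in AC (14.8%), and none was high in another class. Rab11a, Rab11b, Rab4a and Rab4b return cargo from endosomes to the surface, and Rab11a also carries cargo to the outer segment. Rab11a had 434 CPM in RGC, 345 in AC, 107 in MG, 106 in Rod, 104 in BC and 80.3 in Cone. Rab4b had 431 CPM in AC, 366 in RGC, 213 in BC, 115 in MG, 115 in Cone and 93.5 in Rod. The AC and RGC values stood above all others in both genes, and in Rab11b (424 and 441 CPM against 89.2 to 146) and Rab4a (183 and 334 against 43.5 to 100.1). Rab15 had 14.2 CPM in RGC, 6.40 in AC, at most 0.241 in BC and Rod, and 0 counts in Cone and MG.

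Late endosome and lysosome Rabs were led by Rab7 (chr6:87999106-88045270), which drives endosomes and autophagosomes to lysosomes. Its level was 805 CPM in RGC, 381 in AC, 115 in MG, 115 in BC, 101 in Rod and 86.4 in Cone. Ganglion cells thus stood 2.11-fold above amacrine cells and the 4 other classes lay close together. Rab9b had 4.27 CPM in RGC, 2.11 in AC and at most 0.724 elsewhere, with 0 counts in MG. Rab38, a Rab of melanosomes and other lysosome-related organelles, had 31.3 CPM in MG and 15.9 in BC, at most 1.37 in AC, Cone and Rod, and 0 counts in RGC. Pigment epithelium markers summed to 8859 CPM in MG, 62.4 in AC, 38.5 in Rod and 20.5 in BC. Most of each sum was Ttr alone (8443, 58.3, 36.0 and 19.6 CPM). The part of pigment epithelium in the Rab38 levels of MG and BC was not tested. Rab32, the closest relative of Rab38, had 109 of 116 counts in AC (2.26 CPM) and 0 counts in Cone, MG and RGC. AC held 93.4% of its summed CPM.

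By the rule of at least 80% of summed CPM in 1 class, 3 of 49 members were restricted: Rab20 and Rab29 to MG and Rab32 to AC (background 8%). The rule takes a count of 0 as 0 CPM. For Rab32 the floors at 0 counts are 0.411 CPM in Cone, 0.489 in MG and 0.855 in RGC, beside 2.26 in AC. Its restriction therefore cannot be told apart from low depth in those columns. Of the SOCS-box members, Rab40b had 21.6 CPM in AC, 14.0 in BC, 5.34 in Cone, 4.08 in MG, 0.855 in RGC and 0.595 in Rod, whereas Rab40c ran only from 1.78 in Cone to 9.97 in RGC.

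Photoreceptors were also set against inner neurons, as the mean CPM of Rod and Cone over the mean of AC, BC and RGC on the same log2 scale. Of 49 members, 4 were high in photoreceptors (8.16%, background 17.8%). These were Rab19 at 2.79 (11.8 CPM in Cone but 0.505 in Rod), Rab30 at 2.03, Rab43 at 2.03 and Rab22a at 1.32. Another 20 were low (40.8%, background 21.8%), and the median was -0.80 for Rab genes and 0.01 for all genes tested. The lowest ratios were those of Rab33a (-3.84), Rab3b (-3.50), Rab26 (-3.22) and Rab3c (-3.20). Members known from ciliary transport lay near equality or on the low side: Rab28 at 0.36, Rab8a at -0.03, Rab10 at -0.02 and Rab11a at -1.65.

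**Figure D3:**
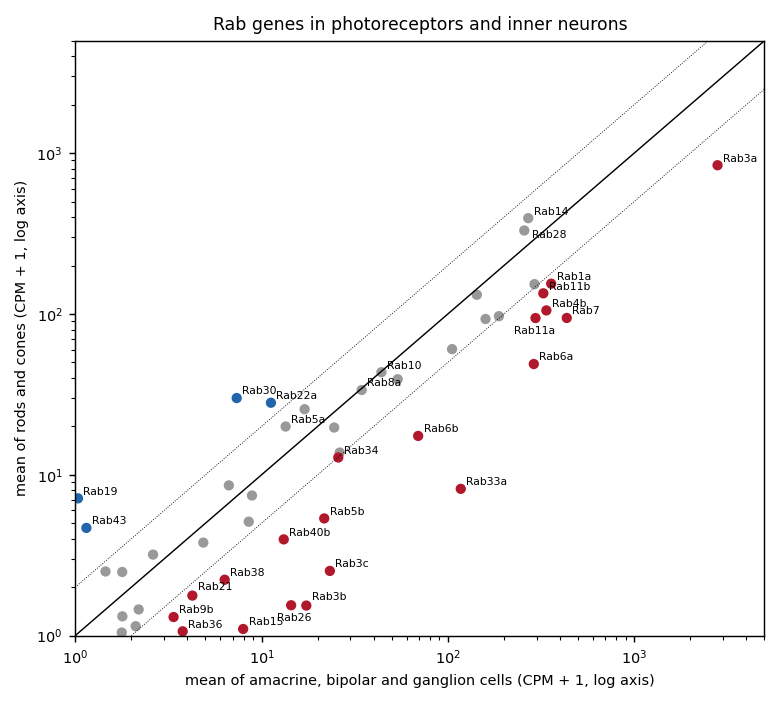
Mean level of each of 49 Rab genes in inner neurons (x axis) and photoreceptors (y axis), as CPM + 1 on log axes, with the line of equality and dotted lines at 2-fold. The 4 blue genes lie above the upper dotted line, the 20 red genes lie below the lower one, and grey genes lie between.

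Near-identical paralogues did not share a fixed balance. Rab6a made up 86.4% of Rab6 counts in AC (85.9 to 86.9), 83.3% in RGC, 77.8% in Rod, 68.2% in Cone and 59.2% in MG, but 29.0% in BC (26.99 to 31.05), where Rab6b took 71.0%. Rab6b itself had 48.1 CPM in BC and 45.9 in AC, so the difference between these classes lay in Rab6a. Rab4a made up 16.9% of Rab4 counts in BC, 29.9% in AC and 37.7% to 51.7% in the other 4. Rab40b made up 71.1% to 78.4% of Rab40 counts in AC, BC and Cone (39 of 52 counts in Cone) and 43.9% in MG (25 of 57). Its share was 8.46% in Rod and 7.89% in RGC (3 of 38 counts, 1.66 to 21.4). Rab11a and Rab11b, in contrast, stayed near balance, with Rab11a at 39.9% to 54.6% in all 6 classes. Reads from close paralogues or processed copies may have been assigned to the wrong gene, and how the authors assigned them is not given in the sources used here.

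**Figure D4:**
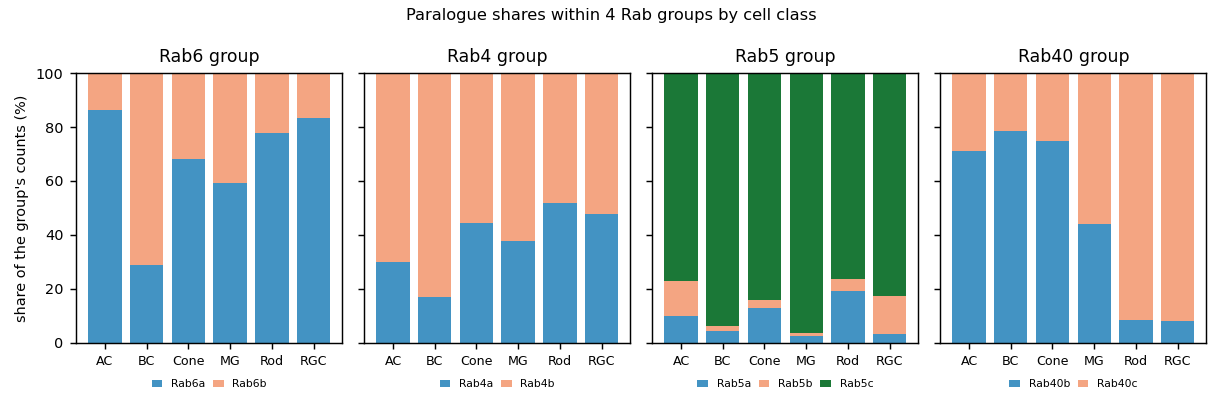
Share of the counts of each of 4 Rab groups (%, y axis) that fell on each paralogue, by cell class. Rab6b takes 71.0% in BC and less in the 5 other classes. Rab40b takes 71.1% to 78.4% in AC, BC and Cone, 43.9% in MG, 8.46% in Rod and 7.89% in RGC.

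Rab transcripts were mostly of annotated form. Of 119 isoforms, 45 (37.8%, 29.1 to 47.2) had no Ensembl transcript identifier, against 60.3% over all Ensembl genes, and these held 3.12% of Rab counts against 5.58%. Of the 55 genes, 31 (56.4%) had 2 or more isoforms, against 68.1% over all Ensembl genes, and none had more than 6. The unannotated share of Rab counts was 5.08% in Rod, 3.03% in AC, 2.38% in MG, 2.34% in RGC, 2.27% in Cone and 1.26% in BC. Over all genes it was 6.92% in Rod, 4.97% in AC, 5.16% in MG, 4.17% in RGC, 5.43% in Cone and 4.33% in BC. Without Rab3a the Rab shares were 6.13% in Rod, 5.24% in AC, 2.52% in MG, 3.85% in RGC, 3.58% in Cone and 2.21% in BC, which put AC above its share over all genes. Structures could be read for 108 isoforms, since the other 11, with 254 counts, have no model in the deposited annotation. Of these 108, 71 keep a whole annotated reading frame, and they hold 96.6% of Rab counts (94.8% without Rab3a). Compared with the leading isoform of their gene, the other 54 isoforms with a model differed, among other ways, by a skipped exon in 21 cases, another first exon in 13, another last exon in 10 and another 3′ splice site in 8.

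Leading isoforms differed between classes in 3 of 19 Rab genes with enough counts, Rab13, Rab23 and Rab28 (15.8%, background 10.3%). The share lay below that of all genes at a minimum of 20 counts (5 of 28, background 24.98%). The rule asked for at least 100 counts of the gene in both classes, another leading isoform, and a difference of at least 50 percentage points in its share. The other 16 genes, among them Rab3a, Rab7, Rab11a and Rab4b, had no such pair.

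Rab28 has alternative C-terminal ends, set by a cassette exon of 95 bases (chr5:41626987-41627081, minus strand). When it is included, translation ends within it, and when it is skipped, the frame runs on into the last exon. Both ends are printed from the first base after the shared exons to the stop codon, with cysteine codons in capitals, because the choice between them is what differs most between classes.
Rab28 with the exon, chr5:41626992-41627081 (GRCm38, minus strand): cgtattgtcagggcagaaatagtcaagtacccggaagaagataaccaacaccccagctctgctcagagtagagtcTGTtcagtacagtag
Rab28 without the exon, chr5:41625770-41625862 (GRCm38, minus strand): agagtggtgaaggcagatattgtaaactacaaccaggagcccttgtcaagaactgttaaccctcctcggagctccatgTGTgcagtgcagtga
The forms share 191 codons and then have 29 and 30 codons of their own, for frames of 220 and 221. Each end has 1 cysteine codon, and in both it is the fourth from the last, so the arrangement shown above is kept.

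The exon was included in 90.0% of Rab28 counts in BC (89.2 to 90.7, 6296 counts), 80.6% in Rod (80.0 to 81.1, 21622 counts) and 73.5% in Cone (71.5 to 75.5, 1963 counts). Inclusion was 54.0% in AC (53.2 to 54.7, 16950 counts), 43.7% in RGC (40.0 to 47.5, 702 counts) and 28.5% in MG (25.7 to 31.5, 981 counts). No interval overlapped another, and the order put bipolar cells and photoreceptors above amacrine, ganglion and glial cells. A second cassette exon of Rab28, of 89 bases, varied less, from 80.8% included in MG to 93.2% in RGC. Leaving it out of the 220-codon frame brings a stop after 63 codons. Neither form without it is annotated. With the 95-base exon that form held 13.1% of Rab28 counts in Rod and 3.56% in RGC, and without that exon 10.1% in AC and 1.00% in BC.

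Rab13 has alternative first exons. An upstream first exon (chr3:90213710-90213822, plus strand) and a downstream one (chr3:90220889-90221022) lie about 7 kb apart. The downstream exon was used in 97.3% of spliced Rab13 counts in MG (96.1 to 98.2, 1025 counts), 55.4% in BC (50.8 to 60.04, 460 counts) and 47.6% in Rod (43.7 to 51.5, 660 counts). It was used in 37.9% in Cone (27.7 to 49.0, 87 counts), 12.4% in AC (10.2 to 15.0, 772 counts) and 0% in RGC (0 to 3.89, 93 counts). Müller glia, where the gene was also highest, were thus almost wholly on the downstream exon and ganglion cells on the upstream one.

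The exons differ in what they can encode. The annotated frame that starts in the downstream exon has 202 codons, and its coding bases are printed with the P-loop codons in capitals.
Rab13 downstream first exon, coding bases, chr3:90220899-90221022 (GRCm38, plus strand): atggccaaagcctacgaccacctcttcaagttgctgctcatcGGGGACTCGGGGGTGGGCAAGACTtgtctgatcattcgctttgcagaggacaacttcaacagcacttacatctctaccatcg
The frame annotated for the transcript with the upstream exon starts at a later ATG, has 121 codons, and lacks the first 81 codons, P-loop included (codons 15 to 22). Its 121 codons are the last 121 of the longer frame. Around the starts, the upstream one lies head to head with Rps27, a ribosomal protein gene on the other strand, and 43 bases separate the starts that M21 annotates. Those bases, and the last 100 before the downstream start as RefSeq places it, are printed from the RefSeq promoter table (GRCm38.p6) with each CG in capitals.
Rab13 between the Rps27 and Rab13 starts, chr3:90213652-90213694: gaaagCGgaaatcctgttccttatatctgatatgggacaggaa
Rab13 before the downstream start, chr3:90220684-90220783: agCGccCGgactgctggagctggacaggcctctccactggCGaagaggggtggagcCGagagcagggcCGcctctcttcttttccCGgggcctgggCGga
In windows of 300 bases (250 before to 50 after a start), the upstream start had a GC content of 56.7% and 25 CG, and the downstream start 58.3% and 11 CG. The table held windows for 46 of the 55 genes (58 windows), with a median GC content of 61.7% and 20 CG, against 52.7% and 7 CG over 32851 windows of all genes.

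Further Rab13 forms differed between classes. An unannotated isoform with a single exon, chr3:90213710-90215037, starts at the upstream exon and runs into the intron after it; it held 45.6% of all Rab13 counts in Rod, 29.3% in AC, 25.2% in BC, 23.0% in Cone, 1.06% in RGC and 0.0975% in MG. An exon of 66 bases (chr3:90224702-90224767) was included in 84.4% of spliced counts in Rod and 85.1% in Cone, against 99.6% in BC, 99.6% in MG, and all counts in AC and RGC. With annotated isoforms alone, the downstream share was 56.4% in Rod and 55.7% in BC, so their order turned.

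Rab23 switched between a whole and a short form. The short form ends after 4 exons (chr1:33719909-33725476) and is annotated as a retained intron, and the whole form (chr1:33719909-33740772) has 8. The short form held 69.4% of Rab23 counts in BC (62.2 to 75.9, 186 counts), 70.3% in Cone (26 of 37 counts), 55.8% in Rod (51.6 to 59.95, 561 counts) and 48.7% in MG (19 of 39 counts). It held 14.0% in AC (10.3 to 18.6, 292 counts) and none of 16 counts in RGC. The AC interval lay below those of BC and Rod. A further short form, unannotated and with a 5′ splice site 13 bases away, held 12.3% in AC and 4.46% in Rod.

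In Rab11a and Rab4a, alternative 3′ splice sites take a stretch out of a coding exon. Both stretches end in AG, shown in capitals, the bases that precede the exon when the stretch is left out.
Rab11a stretch, chr9:64716966-64716988 (GRCm38, minus strand): agatataccgcattgtttctcAG
Rab4a stretch, chr8:123830233-123830270 (GRCm38, plus strand): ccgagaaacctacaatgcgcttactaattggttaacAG
The Rab11a stretch was kept in 92.5% of counts in MG (90.3 to 94.4), 89.7% in BC (88.5 to 90.7), 85.0% in Cone (81.9 to 87.8), 71.4% in Rod (70.2 to 72.5), 66.6% in RGC (64.1 to 68.9) and 66.4% in AC (65.7 to 67.2). RGC and AC, the classes with most Rab11a, overlapped, and both lay below the other 4. The 23 bases are no whole number of codons: without them the frame ends after 177 codons in place of 216 and has 0 cysteine codons among its last 5. That isoform, which is not annotated, held 8235 of 28334 Rab11a counts.

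The Rab4a stretch was kept in 99.7% of counts in RGC (99.3 to 99.9), 94.0% in Cone, 92.8% in AC (92.3 to 93.4), 90.16% in MG, 89.0% in BC (87.1 to 90.7) and 84.0% in Rod (83.0 to 85.0). Rods thus had the most and ganglion cells the least of the shortened form. Without its 38 bases the frame ends after 135 codons in place of 218, with 0 cysteine codons among the last 5.

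Other isoform choices were smaller or constant. Rab34 used its upstream first exon in 56.3% of counts in AC (53.9 to 58.7) and 46.6% in RGC (33.3 to 60.1), against 31.9% in MG (26.6 to 37.5), 25.9% in BC, 25.9% in Rod and 22.9% in Cone. Rab4b kept an intron of 264 bases in 13.3% of counts in Cone and 10.4% in Rod, against 4.11% in AC and 3.30% in BC. Rab30 used another first exon in 18.4% of counts in AC and 4.65% in Rod. An exon of 190 bases in Rab32, whose transcript is annotated for nonsense-mediated decay, was included in 65 of 109 counts in AC. In Rab3a, a 5′ splice site 5 bases downstream was used in 28.9% to 33.2% of counts in every class.

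**Figure D5:**
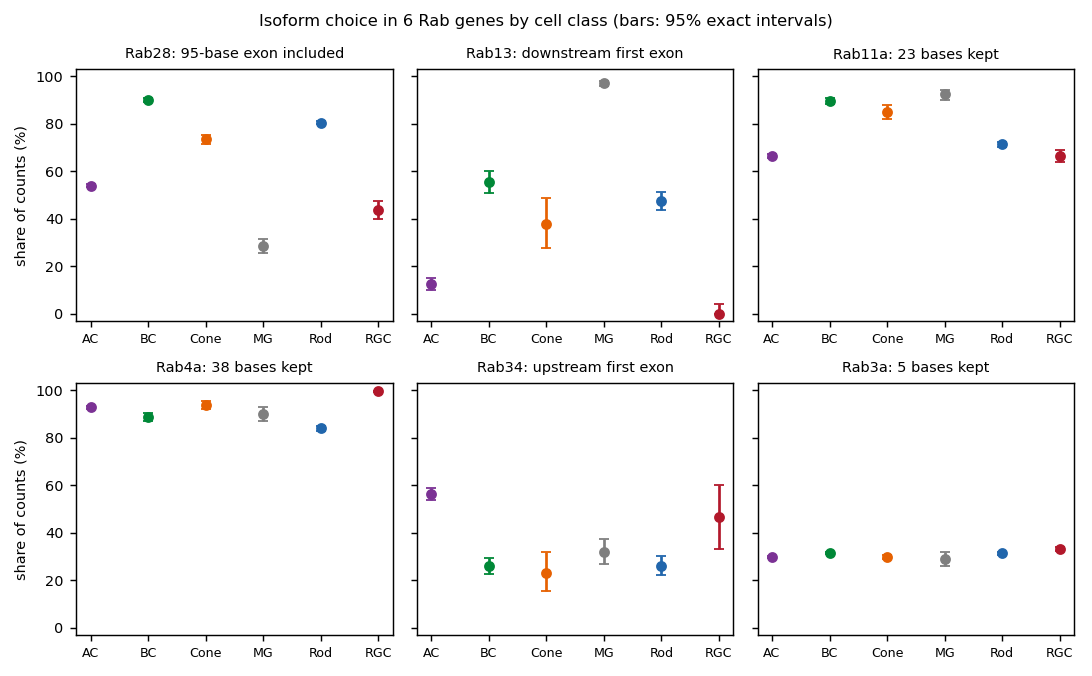
Share of counts (%, y axis) with the named exon, first exon or stretch in 6 Rab genes, by cell class, with 95% exact intervals. Rab28 inclusion spans 28.5% to 90.0% and the Rab13 downstream exon 0% to 97.3%, whereas the Rab3a splice site stays between 28.9% and 33.2%.

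Proteins that handle Rabs were read from lists of regulators and effectors. Of 8 genes of prenylation and membrane cycling, 7 were tested. Rabif, a chaperone of nucleotide-free Rabs, was high in RGC, with 114 CPM there, 89.0 in AC, 66.2 in Rod, 37.9 in Cone, 25.5 in BC and 16.5 in MG. Rabac1, a membrane receptor for Rabs, was even, from 899 CPM in AC to 1219 in Cone, and Gdi2 ran from 98.0 in Cone to 293 in AC. The prenyltransferase subunits Rabggtb (114 to 207 CPM) and Rabggta (4.27 to 12.1 CPM) were neither high nor low in any class.

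Of 19 exchange factors tested, 3 were high in Rod (15.8%, background 16.8%) and none low there (background 24.9%), and 2 were high (10.5%, background 12.8%) and 9 low (47.4%, background 42%) in RGC. The high shares and the low share in RGC lay near those of all genes. Rabgef1, the exchange factor of Rab5, had 72.0 CPM in Rod and 20.1 in Cone, against 1.42 to 3.96 in the other 4 classes. Rab3ip, the Rab8 exchange factor Rabin8, had 87.6 CPM in Cone, 70.5 in BC, 62.3 in Rod, 26.4 in AC, 17.1 in RGC and 14.2 in MG, whereas its paralogue Rab3il1 was highest in MG at 17.9. Ccz1, a subunit of the Rab7 exchange factor, had 75.8 CPM in Rod, 64.3 in BC, 58.4 in Cone and 28.0 to 30.5 in MG, AC and RGC. These 3 lowest classes for Ccz1 include the 2 with most Rab7, AC and RGC, and also MG, where Rab7 had 115 CPM. Mon1a, a subunit of the same exchange factor as Ccz1, was in contrast high in RGC, the class with most Rab7.

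Of 25 GTPase-activating proteins tested, 5 were high (20%, background 16.8%) and 1 low (4%, background 24.9%) in Rod, and 4 were high (16%, background 12.8%) and 15 low (60%, background 42%) in RGC. Rabgap1l had 45.0 CPM in RGC and 4.80 or less elsewhere, and Evi5, a Rab11 regulator, had 6.84 CPM in RGC and at most 1.51 elsewhere. Tbc1d8 had 17.8 CPM in Rod, 5.61 in Cone and at most 1.03 elsewhere. Tbc1d7 ran from 27.6 CPM in MG to 175 in RGC, Tbc1d17 from 9.69 in RGC to 65.1 in MG, and Tbc1d10a from 12.2 in BC to 49.4 in MG.

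Of 24 effectors tested, 3 were high in each of RGC, Rod and Cone (12.5%, backgrounds 12.8%, 16.8% and 5.6%), 2 in MG (background 13.6%), 1 in BC (8.63%) and none in AC (14.8%), while 8 were low in RGC (33.3%, background 42%). Sytl2, a Rab27 effector of granule docking, had 21.9 CPM in RGC, 5.49 in AC and at most 0.379 elsewhere. Rims2, the Rab3 effector of the presynaptic active zone, had 20.0 CPM in Cone, 10.9 in Rod, 8.24 in BC, 4.08 in AC and 0.652 in MG, with 0 counts in RGC. Its paralogue Rims1, named after its values were seen, had 5.70 CPM in RGC, 4.15 in AC, 4.08 in MG, 1.14 in BC and 0.325 in Rod, with 0 counts in Cone. Appl2, a Rab5 effector, had 17.1 CPM in BC and 0 counts in RGC. Rilpl1 and Rilpl2, effectors of LRRK2-phosphorylated Rabs, were highest in MG at 43.7 and 56.4 CPM, and Rabepk, a Rab9 effector, in Cone at 55.7.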

How the data were processed

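Nanopore reads of single-cell cDNA from 4 mouse retina libraries were available as the authors' deposited counts per isoform in 6 cell-class columns and a deposited annotation of transcript positions. The source field of the latter reads FLAIR, per the file contents. The build is mm10, per the submitters' processing notes. The aligner, counter, use of molecular identifiers, cell typing, doublet treatment and filters are not given in the sources used here. The lowest isoform total was 6 counts, and models were deposited for exactly the 36426 isoforms with a Rod count. Of 13452 Ensembl gene identifiers, 13448 were matched to a symbol, and 0 columns were left unused.

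Counts were used as deposited and scaled to CPM (Python 3.11.15, pandas 2.3.3, scipy 1.17.1). Genes with at least 100 counts were compared with a pseudocount of 1 CPM and the 2-fold rule. Since a class is 1 pooled sample, no test was made, and genes were named by size: for each class the 4 largest and 2 smallest ratios, the 6 with most counts, switched, restricted, least variable and zero-count members, 8 well-known members, and for each regulator list the 3 largest and 3 most counted. Members and lists were chosen with earlier results of these data known. Alternatives used size factors computed from the formulas of the median of ratios and of the trimmed mean of M-values, other thresholds, and columns thinned 20 times to the RGC total of 3509890 counts. The rules were tested on simulated data. Sequences were read from GENCODE M21 transcripts and the RefSeq promoter table.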

Additional observations from a re-analysis of the deposited data

How the results depend on the processing

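No paired analysis was possible because replicate numbers appear in no column name, and leaving out each library could not be done because no column separates libraries. The intervals of class values therefore cover counting error only, and RGC, the shallowest column, limits what a 0 can show. Libraries differed in enrichment and in age, and which of them feed a class is not given. Differences between classes therefore cannot be told apart from differences of library, enrichment or age. Some low calls turned their sign against the median of the other 5 classes, among them Rab20 in Rod, Rab38 in Cone and Rab13 in AC. Rab20 in Rod was low against the mean (-1.94), yet its 2.56 CPM lay above every other class but MG (60.3 CPM). The balance of calls, the place of Rab switches against all genes and the order of Rod and BC in Rab13 first exon use also turned. The share of counts on Rab genes, 0.477%, was 0.494% with annotated isoforms only and 0.481% over Ensembl genes only. The 43 high calls over 6 classes became 68 at 1.5-fold and 23 at 3-fold, and 37 without the RGC column. The 95 low calls became 61 with a pseudocount of 5 CPM, 52 at 3-fold, 45 against the median of the other 5 classes and 66 without RGC. Against that median the high calls became 62, so high calls outnumbered low ones. The 3 restricted genes became 10 at a share of 60% and 0 at 95%. The 37.8% of isoforms outside the annotation became 18.8% among isoforms with at least 100 counts, and their 3.12% of counts became 2.96% with that minimum and 2.95% for models of 2 or more exons. The 3 switches of 19 genes became 5 of 28 at a minimum of 20 counts (with Rab31 and Rab8b), where 24.98% of all genes switched, and 4 of 19 at 25 percentage points (with Rab34), where 21.5% of all genes did. At equal depth, where fewer genes reach the minimum, there was 1. The 96.6% of counts with a whole frame became 96.7% by introns only. Where construction does not show it, the cause was not tested. The shares of single splice events were recomputed in 2 ways chosen after seeing the data, with annotated isoforms only and at equal depth, and 10 moved beyond their interval while 215 did not. Among the planned recomputations of values outside the main results, 214 moved and 332 did not.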

Other observations

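Short motifs were counted on both strands in the 58 promoter windows of 300 bases that the RefSeq table (GRCm38.p6) held for 46 Rab genes, as a description of letters only. The letters TAATCC, the core bound by photoreceptor homeobox factors such as CRX, were in 2 of 58 Rab windows (3.45%), both of Rab43, against 7.06% of 32851 windows of all genes. CACGTG, the E-box bound by lysosomal gene regulators of the TFEB family, was in 10.3% of Rab windows (Rab20, Rab21, Rab23, Rab24, Rab27a and Rab5a) against 7.15% of all. TATAAA was in 5.17% (Rab39b, Rab3b and Rab7) against 13.6% of all, and TGACGTCA, the cAMP response element, in 1.72% (Rab5a) against 1.79%.

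Of 55 Rab genes, 54 had counts in Rod, 52 in AC, 52 in BC, 51 in MG, 47 in Cone and 43 in RGC. At equal depth the mean numbers were 48.95 in Rod, 50.1 in AC, 45.95 in BC, 50.25 in MG and 44.95 in Cone, so the Rod column no longer led. Rab37, a Rab of mast cell secretion with under 100 counts in all, had 4.27 CPM in RGC and 0 counts in AC. Rab17, a Rab of epithelial cells, had its 13 counts in MG alone (2.12 CPM).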
